A study of Mus musculus with 16 samples.

Results

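The 8 genes Cebpa, Cebpb, Cebpd, Cebpe, Spi1, Gfi1, Irf8 and Klf4, transcription factors that direct myeloid cells towards granulocytes, monocytes or dendritic cells, were taken by name from a table of 23999 gene symbols and read in all 16 RNA sequencing libraries. The libraries came from myeloid sarcomas, solid leukaemic masses that grow away from the marrow, and from whole bone marrow infiltrated by leukaemia. Every mouse carried NPM1cA, a mutant form of nucleophosmin in which the protein is found in the cytoplasm. Marrow came from 9 mice that were also heterozygous for the cohesin gene SMC3 (SMC3+/-), and sarcomas came from 4 SMC3+/- mice, named 2721, 1267, 1268_1270 and 948. Mice 948 and 2721 gave 2 sarcoma libraries each, labelled as replicates, which were summed, and mice 1267 and 2721 gave both tissues. The replicates are called tumour 1 and tumour 2 here, though the labels do not say whether they are separate tumours or parts of 1 mass. A sarcoma of mouse 841 carried NPM1cA with wild type SMC3 and is the only sample of its genotype. The name 1268_1270 may stand for 1 mouse or for pooled mice, and it was counted as 1. Ages, the origin of the leukaemia in each mouse and the promoters behind the alleles were not stated in the labels.

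CCAAT/enhancer binding proteins (C/EBPs) and PU.1, the product of Spi1, act together on the enhancers of myeloid genes, and Cebpa is needed for progenitors to become granulocyte and monocyte precursors. Further on, Gfi1 represses monocyte genes and Cebpe drives the late granule programme of neutrophils, while Irf8 and Klf4 favour monocytes and dendritic cells and Irf8 restrains granulocyte output. In the mouse, loss of Irf8 leads to an expansion of granulocytes, and loss of C/EBP alpha or PU.1 function is a known route to acute myeloid leukaemia.

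Library totals ran from 9797201 to 39197660 counts. In marrows 737, 779 and 782, genes with transcripts over 6000 nucleotides were low, with median log2 deviations of -2.15, -2.18 and -2.05 from the median library, against -0.75 to 0.42 in the other marrows. Sarcoma 1268_1270 stood apart from the other tumours. Its 15 pan-leukocyte genes summed to 863 CPM (counts scaled by TMM-adjusted library totals), against 6487 to 12101 CPM in the other SMC3+/- sarcomas and 8554 to 16335 CPM in marrow, and its adipocyte markers summed to 47608 CPM against at most 1178 CPM in the other sarcomas. In such bulk samples, fewer cells of a type and less RNA per cell cannot be told apart.

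The sequences upstream of 4 of these genes are shown because the results that follow turn on their levels: Irf8 and Gfi1, which ran opposite to each other between marrows, Cebpa, whose value in 1 sarcoma was far above the rest, and Cebpb, which differed most between the tumours of a mouse. Each is the 250 bases before the annotated start, read in the direction of the gene, from the RefSeq promoter table on GRCm38.p6, which held 5 of the 8 genes (Klf4 is the fifth; Cebpd, Cebpe and Spi1 are not shown). Capitals mark matches, on either strand, to 6 motifs: the TATA box TATAAA, the C/EBP core TTGCG, the CREB/ATF core TGACG, the STAT site TTCNNNGAA, the PU.1 core GAGGAA and the GFI1 core AAATCA.
Irf8, chr8:120736108-120736357, plus strand: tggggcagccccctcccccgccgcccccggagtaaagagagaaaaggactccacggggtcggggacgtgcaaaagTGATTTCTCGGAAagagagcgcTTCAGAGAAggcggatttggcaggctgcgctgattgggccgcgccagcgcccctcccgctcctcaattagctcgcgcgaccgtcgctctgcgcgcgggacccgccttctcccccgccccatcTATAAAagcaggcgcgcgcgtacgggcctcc
Gfi1, chr5:107725806-107726055, minus strand: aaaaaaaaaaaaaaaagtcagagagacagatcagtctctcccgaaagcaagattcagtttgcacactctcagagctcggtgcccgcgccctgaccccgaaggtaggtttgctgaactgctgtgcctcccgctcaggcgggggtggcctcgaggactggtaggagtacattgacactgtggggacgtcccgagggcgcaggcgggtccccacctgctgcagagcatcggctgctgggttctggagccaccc
Cebpa, chr7:35119043-35119292, plus strand: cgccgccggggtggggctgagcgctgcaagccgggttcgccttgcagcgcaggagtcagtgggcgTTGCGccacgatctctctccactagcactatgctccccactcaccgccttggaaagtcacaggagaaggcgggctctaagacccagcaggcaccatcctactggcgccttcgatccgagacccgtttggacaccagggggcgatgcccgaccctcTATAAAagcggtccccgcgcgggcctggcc
Cebpb, chr2:167688665-167688914, plus strand: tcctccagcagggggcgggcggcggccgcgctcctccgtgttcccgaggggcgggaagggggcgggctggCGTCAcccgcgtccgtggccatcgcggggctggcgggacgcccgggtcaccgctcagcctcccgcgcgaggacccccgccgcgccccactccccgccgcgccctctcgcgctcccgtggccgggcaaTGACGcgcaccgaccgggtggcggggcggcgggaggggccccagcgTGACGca
The Irf8 sequence holds TATAAA 31 bases before the start and 2 STAT matches, TTCTCGGAA at 171 and TTCAGAGAA at 153 bases before it. The first of these overlaps TGATTT, the reverse strand of the GFI1 core, at 175 bases. Cebpa holds TATAAA at 30 and TTGCG at 185 bases before the start. Cebpb holds TGACG at 53 and 7 bases and its reverse, CGTCA, at 180 bases. None of the 6 motifs was found in the window of Gfi1. Of all 32851 promoter sequences of this length in the table, 12.4% hold TATAAA, 14.5% TTGCG, 17.8% TGACG, 7.02% the STAT letters, 23.3% GAGGAA and 12.4% AAATCA. The matches are letter matches only, and no binding was measured.

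Per kilobase of transcript, the scale on which different genes can be compared, Spi1 had the highest median level in marrow, at 198 CPM per kb, followed by Cebpb at 169.8 and Cebpe at 147 CPM per kb. Cebpa (80.4 CPM per kb), Irf8 (78.1) and Gfi1 (76.0) lay close together, and Cebpd (36.2) and Klf4 (20.7) were lowest. In the 4 SMC3+/- sarcomas the median levels were 189 CPM per kb for both Cebpb and Spi1, 134 for Cebpe, 111 for Cebpa, 97.1 for Gfi1 and 42.6 for Cebpd. Irf8, at 13.6 CPM per kb, stood beside Klf4, at 12.8 CPM per kb, at the bottom of the sarcoma order. Ranges over mice overlapped between neighbours in both orders, so the ranks of adjacent genes are not separated by their spread.

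**Figure D1:**
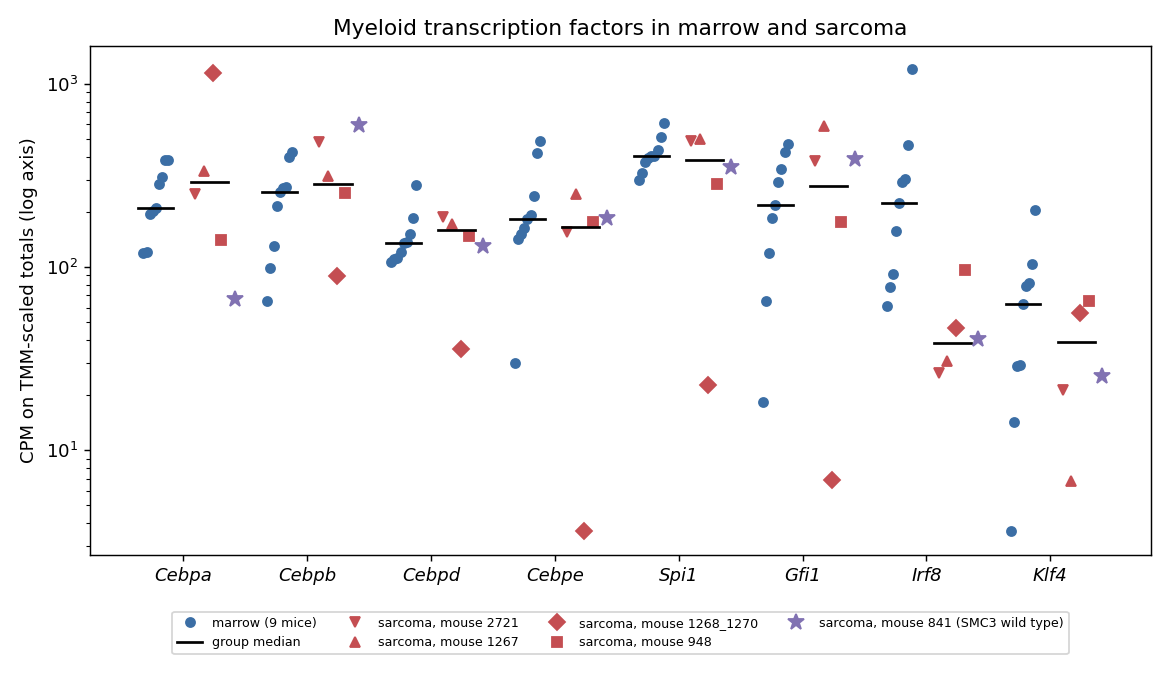
Level of each of the 8 transcription factors in CPM on TMM-scaled totals (log axis), with 1 point per mouse and tissue and a line at the group median. Irf8 in the 4 SMC3+/- sarcomas lies between 26.4 and 95.9 CPM, under the marrow median of 222 CPM, and sarcoma 1268_1270 holds the lowest Cebpd, Cebpe, Spi1 and Gfi1 of all samples.

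Whether the factors differ between sarcoma and marrow was asked in the SMC3+/- mice. None of the 8 passed edgeR's quasi-likelihood test at an adjusted p under 0.05, beside a background of 4.49% of 14730 genes called higher and 0.0543% called lower in sarcoma. Of the 8, 1 gene, Irf8, had an unadjusted p under 0.05 in the lower direction, beside 2.1% of all genes, and DESeq2 and limma-voom each called that 1 gene lower. The median log2 fold change of the 8 was -0.42, against 0.07 over all genes tested. In 0 of the 8 did all sarcomas lie above or below all marrows, beside 4.56% and 0.122% of genes. Samples of a group are different mice, so the p-values measure the spread between mice. Mice 1267 and 2721 sit in both groups, and this pairing was not used in the main fit. For tissue, the p-values also measure what separates the handling. Marrow was crushed out of bone, strained and treated to lyse erythrocytes ahead of Trizol, while tumours went directly into it. Immediate early genes, which respond quickly to stimulation or handling, summed to 502 to 1081 CPM in sarcoma and 965 to 10619.5 CPM in marrow. Klf4, Cebpb and Cebpd are known to respond to such stimuli too, and the part of handling was not tested.

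Irf8, the interferon regulatory factor of monocyte and dendritic development, had the lowest p of the 8. Its level was 26.4 CPM in sarcoma 2721, 30.9 in 1267, 46.4 in 1268_1270 and 95.9 in 948. In marrow it ran from 60.9 CPM in mouse 782 through a median of 222 to 1204 CPM in mouse 737. All 4 sarcomas lay under the marrow median and 3 lay under every marrow, while sarcoma 948 was above marrows 782, 1267 and 919. The log2 fold change was -2.78 ± 0.82 (SE; 95% interval -4.54 to -1.02), with an edgeR p of 0.00440 and an adjusted p of 0.0777. Group means were 49.9 ± 31.9 CPM (SD, n = 4) in sarcoma and 319 ± 357 CPM (SD, n = 9) in marrow.

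The call on Irf8 depended on the test, while its direction was negative in 27 of 27 alternative fits. DESeq2 gave -2.79 with an adjusted p of 0.00368, where 0.599% of genes were called lower, and limma-voom gave -2.42 with an adjusted p of 0.0473, where 0.143% were. It was also called without a count filter (edgeR adjusted p = 0.0498, beside 0.0616% called lower) and with the tumour libraries as units (edgeR adjusted p = 0.0487, beside 0.122%). The fit with tumour libraries counts libraries of the same mouse as independent replicates, so its p-value does not measure the spread between mice. Over the 27 fits the adjusted p ran from 0.00368 to 0.454. An exact permutation test of the mean log2 CPM, two-sided over 715 splits, gave p = 0.0140, where the smallest possible value is 0.0014. Its splits ignored that mice 1267 and 2721 gave both tissues. Leaving out each sample in turn kept the log2 fold change between -3.23 and -2.18 with 0 of 13 edgeR fits calling it. Without marrows 737, 779 and 782 and tumour 1 of mouse 948 it was -1.85 (edgeR adjusted p = 0.160). Tumour 1 of mouse 948, left out with these marrows, was not itself low in long transcripts (deviation -0.55). With scaling to pan-leukocyte genes the log2 fold change of Irf8 was -1.22 (edgeR adjusted p = 0.286), on a scale where the median of all genes was 1.71.

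**Figure D2:**
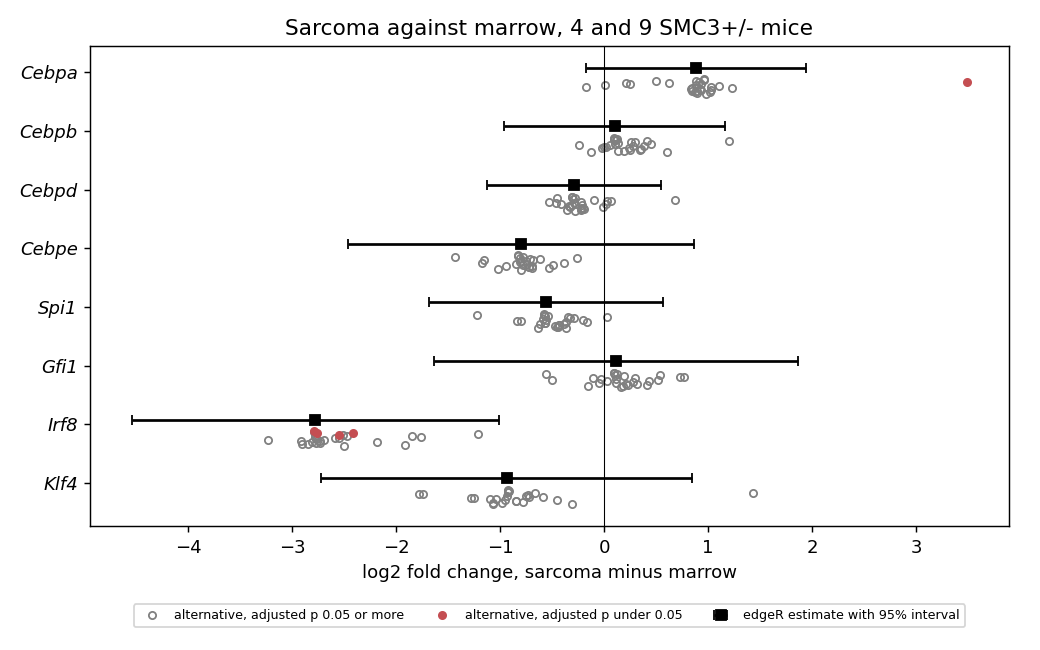
Log2 fold change of each factor in sarcoma against marrow (4 and 9 SMC3+/- mice), with the edgeR estimate and its 95% interval in black and the alternative fits as circles, filled where the adjusted p was under 0.05. Irf8, from -4.54 to -1.02, is the only factor whose interval leaves out 0, and the filled point of Cebpa at 3.49 is the fit scaled to pan-leukocyte genes.

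Klf4, a zinc finger factor of monocytes, had 6.83 CPM in sarcoma 1267, 21.4 in 2721, 56.4 in 1268_1270 and 65.4 in 948. In marrow it ran from 3.61 CPM in mouse 782 through a median of 62.8 to 205 CPM in mouse 949. All 4 sarcomas lay within the marrow range, and the log2 fold change of -0.94 ± 0.83 had an edgeR adjusted p of 0.787. With pan-leukocyte scaling the value turned to 1.43, under that scale's median of 1.71.

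Gfi1, the repressor of monocyte genes in granulocyte precursors, had 379 CPM in sarcoma 2721, 591 in 1267, 176 in 948 and 6.86 in 1268_1270. Marrow ran from 18.3 CPM in mouse 737 through a median of 217 to 472 CPM in mouse 919. Sarcoma 1267 was thus above every marrow and 1268_1270 below every marrow. The log2 fold change was 0.11 ± 0.82 (edgeR adjusted p = 0.994), and its sign changed between fits. Cebpe, the C/EBP of late granule genes, had 155 CPM in sarcoma 2721, 252 in 1267, 176 in 948 and 3.64 in 1268_1270. In marrow it ran from 30.03 CPM in mouse 737 through a median of 183 to 486 CPM in mouse 1267. Outside sarcoma 1268_1270 the tumours lay within the marrow range, and the log2 fold change was -0.80 ± 0.78 (edgeR adjusted p = 0.821).

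Spi1, which encodes PU.1, had 485 CPM in sarcoma 2721, 497 in 1267, 284 in 948 and 22.8 in 1268_1270. Marrow held it between 298 and 614 CPM, with a median of 403 CPM. Sarcoma 948 lay just under the lowest marrow and 1268_1270 far under it, whereas 2721 and 1267 lay among the marrows. The log2 fold change was -0.56 ± 0.53 (edgeR adjusted p = 0.809). The low values of Spi1, Gfi1 and Cebpe in sarcoma 1268_1270 stood beside its low pan-leukocyte sum and its 1198 CPM of progenitor granule genes, against at least 15683 CPM in marrow, and their part in these values was not tested.

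Cebpa went the other way in that tumour. It had 1142 CPM in sarcoma 1268_1270, against 336 in 1267, 249 in 2721 and 139.6 in 948, and marrow ran from 119.9 CPM in mouse 1103 through a median of 211 to 384 CPM in mouse 919. Only sarcoma 1268_1270 was outside the marrow range. The log2 fold change of 0.88 ± 0.49 (edgeR adjusted p = 0.515) was -0.18 without that tumour. With pan-leukocyte scaling it was 3.49 (edgeR adjusted p = 0.00843), where 38.8% of genes were called higher. C/EBP alpha is also a factor of fat cells, and sarcoma 1268_1270 had 4725 CPM of the fat hormone gene Adipoq, against 26.9 CPM or less in every other sample. The part of those cells in the Cebpa value was not tested.

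Cebpb, the C/EBP of stress and emergency granulopoiesis, had 483 CPM in sarcoma 2721, 315 in 1267, 255 in 948 and 89.8 in 1268_1270. Marrow ran from 65.2 CPM in mouse 737 through a median of 255 to 426 CPM in mouse 3332. The log2 fold change was 0.10 ± 0.50 (edgeR adjusted p = 0.992). Cebpd, a C/EBP induced by cytokines, had 189, 171 and 148 CPM in sarcomas 2721, 1267 and 948 and 35.9 CPM in 1268_1270, with 106 to 280.1 CPM and a median of 136 CPM in marrow. Its log2 fold change was -0.29 ± 0.39 (edgeR adjusted p = 0.904). Both genes overlapped between the tissues, with sarcoma 2721 above every marrow for Cebpb and 1268_1270 below every marrow for Cebpd. Exons of Cebpa, Cebpd and Gfi1 overlap genes on the opposite strand (Gm45091, Spidr and A430072P03Rik), and since the strand setting of the counting is not given, their reads cannot be told apart.

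Mice 1267 and 2721 allowed sarcoma and marrow to be set side by side within an animal. Irf8 was lower in the sarcoma of both, at 30.9 against 78.3 CPM in mouse 1267 and at 26.4 against 222 CPM in mouse 2721. These log2 differences of -1.34 and -3.07 were larger in size than those of 87.8% and 99.0% of genes in the same pairs. Klf4 was also lower in both sarcomas, by log2 differences of -1.06 and -1.87. Gfi1 was higher in both, at 591 against 292 CPM (1.02) and 379 against 184 CPM (1.04). Cebpa (0.67 and 0.36) and Cebpb (0.30 and 0.82) were higher in both, where the median of all genes was 0.29 and 0.28, so that Cebpb in mouse 1267 and Cebpa in mouse 2721 lay near the typical gene. Cebpd, Cebpe and Spi1 differed in sign between the pairs. With the mouse as a block in these animals alone, the log2 fold change of Irf8 was -2.48 (edgeR adjusted p = 0.0511), beside 0.229% of genes called lower.

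The tumours of 1 mouse were close to each other in mouse 2721 and not in mouse 948. In mouse 2721 the 8 factors differed by at most 0.69 on the log2 scale, the value of Klf4, where the median gene differed by 0.13. In mouse 948 Cebpb had 28.7 CPM in tumour 1 and 570.2 CPM in tumour 2, a 19.8-fold difference that exceeded that of 99.3% of genes in the pair. Klf4 had 19.5 and 131 CPM, a 6.65-fold difference, whereas Gfi1 (241 and 106 CPM) and Cebpe (235 and 114 CPM) were higher in tumour 1 by about as much as the median gene differed in this pair, 1.07 on the log2 scale. Spi1 had 274 and 319.9 CPM. Immediate early genes moved with Cebpb and Klf4: 15 of 15 were lower in tumour 1, with Fos at 5.13 against 78.4 CPM and Jun at 16.1 against 387 CPM. In mouse 2721, 2 of 15 were lower in tumour 1. Skeletal muscle genes separated the tumours of mouse 948 too. They summed to 3352 CPM in tumour 1 and 16.8 CPM in tumour 2, with 10 of 10 higher in tumour 1. Progenitor granule genes summed to 36027 and 13139 CPM, with 10 of 15 higher in tumour 1. Late neutrophil genes summed to 183044 and 55540.1 CPM, with 9 of 14 higher in tumour 1, so these sums do not hold for every gene of the lists. These are differences between single libraries with no replicate, and the part of handling or of other cells in them was not tested.

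**Figure D3:**
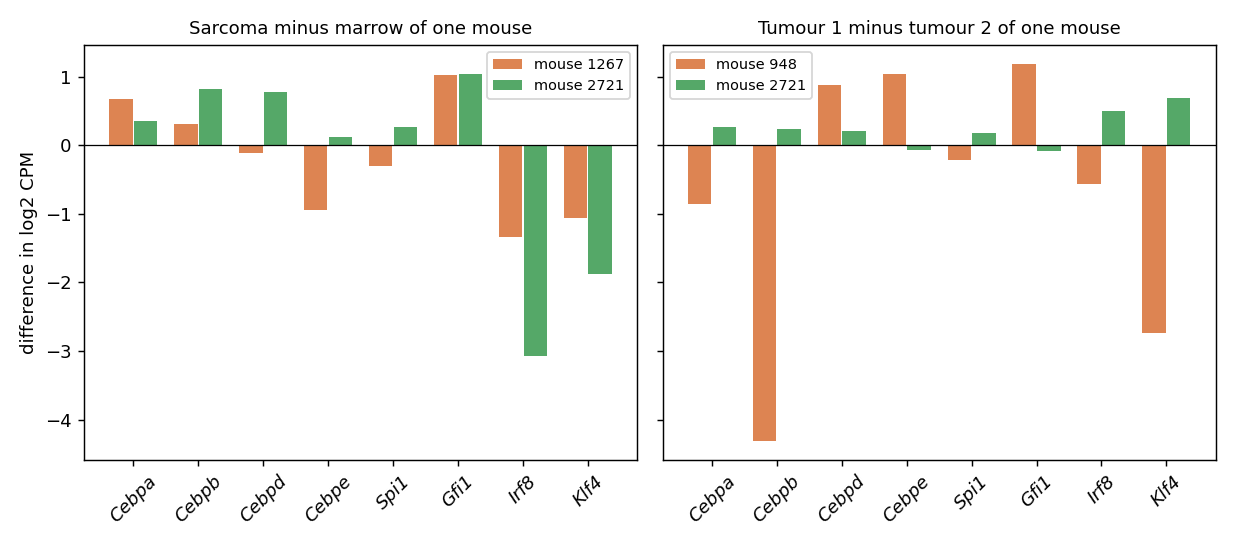
Log2 differences of the 8 factors within mice, for sarcoma minus marrow in mice 1267 and 2721 and for tumour 1 minus tumour 2 in mice 948 and 2721. Irf8 lies at -1.34 and -3.07 in the tissue pairs, and Cebpb at -4.31 is the largest difference between the tumours of mouse 948.

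Within marrow the factors differed widely in how much they varied from mouse to mouse. Spi1 had the smallest spread, 2.06-fold from lowest to highest, with an SD of 0.32 on the log2 scale that was larger than that of 5.70% of 9139 expressed genes. Cebpd (SD 0.45) and Cebpa (0.64) also lay under the median gene's SD of 0.74. Cebpb (0.92) and Cebpe (1.15) lay above it. Irf8 (1.37, or 19.8-fold), Gfi1 (25.8-fold) and Klf4 (1.74, or 56.9-fold) varied most, with SDs above those of 83.3%, 86.0% and 89.6% of genes. Over the 6 marrows not low in long transcripts the SD was 0.32 for Spi1, the smallest, and 1.38 for Klf4, the largest, around a median gene of 0.50. There Cebpb, at 0.39, lay under the median, and Cebpa (0.75) and Cebpd (0.51) lay above it. With pan-leukocyte scaling over all 9 marrows Cebpd had the smallest SD (0.30), ahead of Spi1 (0.36), and Gfi1 (1.61) the largest, ahead of Klf4 (1.45), around a median of 0.89.

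Irf8 and Gfi1 ran opposite to each other over the 9 marrows. Marrow 737 had the highest Irf8 (1204 CPM) with the lowest Gfi1 (18.3 CPM), and marrow 782 had the lowest Irf8 (60.9 CPM) with 424 CPM of Gfi1. Pearson's r of log2 CPM was -0.90 (exact permutation p = 0.000893, adjusted over 28 pairs of factors 0.025), and Spearman's rho was -0.83 (exact permutation p = 0.00827, adjusted 0.231). Without marrows 737 and 949, the farthest from the median Gfi1, r was -0.88. Over the 6 marrows not low in long transcripts r was -0.72 (exact permutation p = 0.0889) and rho was -0.66 (exact permutation p = 0.175). Among the 28 pairs, the largest r over those 6 marrows was that of Irf8 with Klf4, at 0.94 (exact permutation p = 0.00556, not adjusted). Over all 9 marrows that pair had an r of 0.60 (exact permutation p = 0.0881, adjusted 0.432). Of all expressed genes, 0.164% were correlated with Irf8 over the 9 marrows as negatively as Gfi1 was. The pair of Irf8 and Gfi1 was tested after the levels had been seen.

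The samples at the ends of that relation differed in stage markers as well. Marrow 737 had the highest mean of 15 monocyte and dendritic genes (log2 CPM 7.25) and the lowest mean of 14 late neutrophil genes (8.03), with the monocyte receptor gene Ccr2 at 1250 CPM. Marrow 782 had the lowest monocyte and dendritic mean, 4.79, with the lowest Irf8 and Klf4. Both marrows were low in long transcripts. Among the 6 others, the monocyte and dendritic mean was lowest in marrow 919, at 4.95, which had the highest Gfi1. It was highest, at 6.202, in marrow 949, which had the lowest Gfi1 of those 6. The order was different by summed CPM. Marrow 949 had 3319 CPM of these genes, close to marrow 919 at 3072 CPM and under marrow 1103 at 6077 CPM. By that sum marrow 782, at 3554 CPM, was above marrows 949, 919 and 1267 (2585 CPM). The late neutrophil mean did not follow Gfi1 throughout: it was highest, at 11.93, in marrow 949, whose Gfi1 level of 65.7 CPM was the next lowest to that of 737. That marrow had the highest Klf4 and Cebpd and also the highest immediate early mean, 8.47, with Fos at 1483 CPM, and the part of those genes was not tested. Cebpe and Spi1 were both highest in marrow 1267, and their r of 0.85 (exact permutation p = 0.00518, adjusted 0.0725; rho 0.68, exact permutation p = 0.0503) did not pass the adjustment.

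The log2 ratio of Gfi1 to Irf8 counts ran from -6.04 in marrow 737 through a median of -0.27 to 2.80 in marrow 782. It was 3.85 in sarcoma 2721, 4.26 in sarcoma 1267 and 3.25 in the SMC3 wild type sarcoma 841, above every marrow. Sarcoma 948, at 0.87, lay within the marrow range. Sarcoma 1268_1270, at -2.75, did so only through marrow 737: the 6 marrows not low in long transcripts ran from -2.15 to 2.37, with a median of 0.43. Of the mice that gave both tissues, the ratio in marrow was 1.90 in mouse 1267 and -0.27 in mouse 2721.

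**Figure D4:**
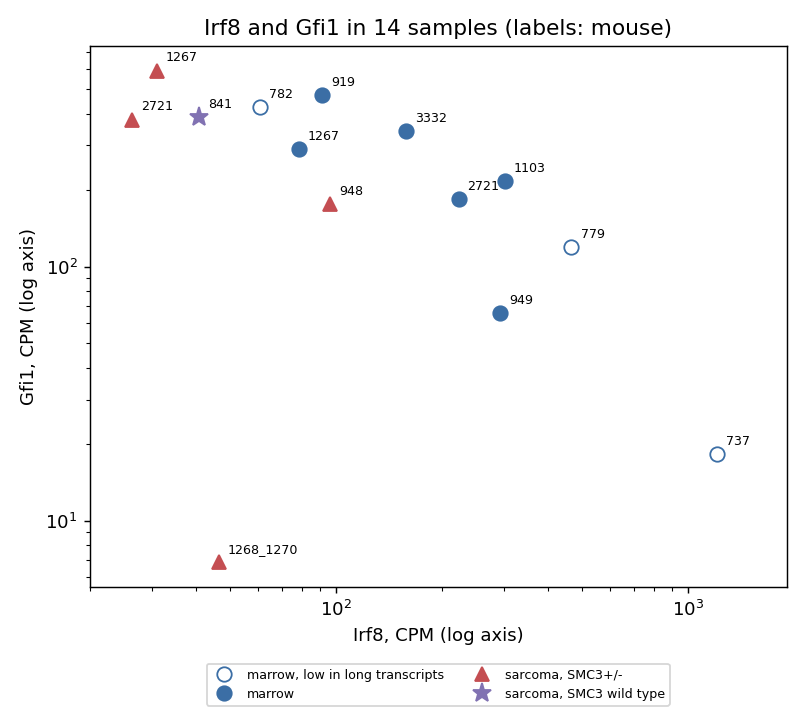
Gfi1 against Irf8 in CPM (both axes log) in the 14 samples, labelled by mouse, with open circles for the marrows low in long transcripts. The marrows run from 782 (60.9 CPM Irf8, 424 CPM Gfi1) to 737 (1204 and 18.3 CPM), and sarcoma 1268_1270 lies low in both.

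The sarcoma of mouse 841, with wild type SMC3, is 1 sample, so its levels are given without a test. Cebpa was 67.3 CPM, the lowest of all 14 samples, and Cebpb was 596 CPM, the highest. Cebpa lay -2.34 on the log2 scale from the mean of the 4 SMC3+/- sarcomas, whose SD was 1.28, and Cebpb lay 1.30 above it, with an SD of 1.03. The other 6 factors were inside the range of the SMC3+/- sarcomas, with Irf8 at 40.7, Klf4 at 25.3, Gfi1 at 388, Cebpe at 184, Spi1 at 353 and Cebpd at 129.7 CPM. Thus 2 of 8 factors were outside that range, beside 28.1% of 18173 genes (9.42% above and 18.7% below). With pan-leukocyte scaling Cebpb came inside the range and Cebpa lay below it. Since 1 mouse carries this genotype, genotype and mouse cannot be told apart.

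Other regulators of myeloid fate and the genes of the stages these factors control were counted from lists. Of 33 other regulators tested, 1 passed in edgeR in the higher direction and 0 in the lower, beside 4.49% and 0.0543% of all genes, so the count is near the background. That gene, Maf, a factor of macrophages, had 13.6, 30.5, 43.9 and 74.4 CPM in the 4 sarcomas and at most 12.3 CPM in marrow, a rise of 3.02 ± 0.69 on the log2 scale (adjusted p = 0.0208). Without sarcoma 1268_1270 it was 2.47 (edgeR adjusted p = 0.190), and with the mouse as a block 1.03 (edgeR adjusted p = 1). Its adjusted p ran from 0.000696 to 1 over the alternatives. Tissue macrophage markers moved with Maf, and 6 of 10 passed in edgeR as higher (such as C1qa and C1qc), beside 4.49% of all genes. The 10 markers summed to 160.1 to 716 CPM in marrow and 1224 to 5178 CPM in sarcoma, and their part in the Maf values was not tested.

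None of 15 progenitor granule genes, 14 late neutrophil genes or 15 monocyte and dendritic genes passed in edgeR, with 0, 1 and 4 at an unadjusted p under 0.05, beside 11.7% of all genes in the higher and 2.1% in the lower direction, and with medians of -0.21, -0.86 and -0.62. DESeq2 called 0, 1 and 2 of them lower, beside 0.599% of all genes, and limma-voom called 1 monocyte and dendritic gene higher, beside 6.05%. Elane and Mpo, which encode the granule enzymes elastase and myeloperoxidase, were abundant in both tissues outside sarcoma 1268_1270. That tumour had 46.9 CPM of Elane and 21.9 CPM of Mpo. In sarcomas 2721, 1267 and 948 Elane was 14680, 10649 and 5453 CPM, and Mpo was 2209, 12546 and 550 CPM. Marrow ran from 527 to 12921 CPM for Elane and from 749 to 17857 CPM for Mpo. With sarcoma 1268_1270 included, the mean of Mpo was 3832 ± 5884 CPM in sarcoma, and it was 6301 ± 5368 CPM in marrow. The 4 monocyte and dendritic genes did not all go the same way: Cx3cr1, Ms4a6c and Ccr2 were lower in sarcoma and Xcr1 was higher. Xcr1 was near the floor, at 0.08 CPM in marrow and 0.99 CPM in sarcoma on average. Zbtb46, Fcgr4 and Ly6c2 also had positive log2 fold changes, and the rest of the list negative ones. Cx3cr1, a chemokine receptor, had 29.3 ± 49.9 CPM in marrow and 1.72 ± 0.65 CPM in sarcoma (edgeR adjusted p = 0.0650). Marrow 737 alone had 159.9 CPM, and without it the marrow mean was 13.03 ± 10.6 CPM. Ms4a6c had 295 ± 344 and 49.3 ± 57.0 CPM (edgeR adjusted p = 0.151), and its marrow mean was 195 ± 179 CPM without marrow 737. Of 15 immediate early genes, 2 passed in edgeR as lower, Fos and Zfp36, beside 0.0543% of all genes called lower. The list median was -2.03, and this moved with tissue and handling together. Within mice 1267 and 2721 the list medians were -0.45 and -0.25.

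The genes most like each factor over the 14 samples were found by the root mean square difference of centred log2 CPM among 8843 genes. Cebpd was nearest to Pfn1 (0.22), Spi1 to Rps6ka1 (0.29) and Fermt3 (0.31), and Cebpb to Runx1 (0.37) and Zfp414 (0.40). Irf8 was nearest to Ptpro (0.42) and Btla (0.53), and Cebpa to Klhl22 (0.46) and Hfe (0.53). Cebpe was nearest to Mcemp1 and the neutrophil surface gene Cd177 (both 0.53), Klf4 to Csf1r (0.63), the receptor gene of macrophage growth factor, and Gfi1 to Sgms2 (0.61). These genes were picked as the nearest of 8843, so distances under the factor's own SD over the samples follow from the choice. Those SDs ran from 0.64 for Cebpd to 1.80 for Gfi1.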

How the data were processed

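Poly(A) RNA libraries of 16 tissue pieces were sequenced. The authors deposited unnormalized counts by gene symbol, as whole numbers in 1 table; per the submitters' processing notes STAR, DESeq, DESeq2 and mm9 were used, without versions or roles. The sources used here do not name the strand setting or annotation. Summing libraries by mouse and tissue gave 14 samples. No libraries matched within sampling noise (closest, the tumours of mouse 2721, mean chi-square per gene 18.6). In R 4.3.3, edgeR 4.0.16 compared 4 sarcoma with 9 marrow mice (TMM, filterByExpr at 10 counts, glmQLFit robust, quasi-likelihood test, two-sided, Benjamini-Hochberg over 14730 genes, adjusted p under 0.05). SE is the log2 fold change over the square root of F. Levels are CPM on TMM-scaled totals; correlations, SDs and list means used log2 CPM with a prior count of 2, and ratios counts plus 0.5. DESeq2 1.42.0, limma 3.58.1 voom and other fits were alternatives. The fitting was tested on simulated data. Mice 1267 and 2721 pair samples, since the labels give both tissues of the same animal. Transcript lengths and promoters came from GRCm38 by symbol; no coordinates on mm9 are given. Long transcripts are over 6000 nucleotides, for the 95.7% of expressed genes with a length.

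Named genes are the 8 factors and up to 4 called genes per list with the smallest adjusted p. The 2 genes most like each factor (at a mean log2 CPM of at least 3) are named too. Of the called genes and the most alike genes, part is printed. Marker genes are named as levels. Cx3cr1, Ms4a6c and the genes named for an unadjusted p or for the direction of their change were chosen after their values were seen. The factors, lists and tests were chosen with earlier results of these data known.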

Additional observations from a re-analysis of the deposited data

Results flagged for a closer look

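Among 16 groups of values (8 factors in 4 sarcoma and in 9 marrow mice), 3 held a sample far from the rest by Dixon's criterion on log2 CPM, where chance flags about 1 in 20 groups. Sarcoma 1268_1270 had the lowest Cebpd, 35.9 CPM, with a gap to the next sarcoma of 0.854 of the group's log2 range, and the lowest Cebpe, 3.64 CPM, with a gap of 0.885 of the range. Marrow 737 had the lowest Cebpe, 30.03 CPM, with a gap of 0.560 of the range, and it was 1 of the marrows low in long transcripts. On linear CPM, a scale tried after the values were seen, these gaps were 0.735, 0.611 and 0.248 and none passed. There 3 other groups did, all at the high end in marrow: Irf8 in marrow 737 (1204 CPM, gap 0.646) and Cebpd and Klf4 in marrow 949 (280.1 and 205 CPM, gaps 0.547 and 0.500).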

How the results depend on the processing

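Of 224 comparisons of a factor with its main value, 17 changed sign, 6 newly passed a threshold (Cebpa in 1 fit and Irf8 in 4 at an adjusted p, and Irf8 by its unadjusted exact permutation p) and 0 lost a call; causes were not tested. The 662 genes higher and 8 lower in sarcoma became 1355 and 13 without a count filter, 297 and 5 at 50 counts, and 5713 higher with pan-leukocyte scaling. With the mouse as a replicate block they were 107 and 23 over all samples and 81 and 33 in mice 1267 and 2721. Without marrows 737, 779 and 782 and tumour 1 of mouse 948 they were 300 and 3, and also without sarcoma 1268_1270, 62 and 0. Genes lower numbered 83 in DESeq2, 21 in limma-voom and 17 with tumour libraries as units, and, chosen after seeing the data, 2 without marrows 737 and 779 and 4 without tumour 1 of mouse 948. Leaving out each sample gave 170 (without sarcoma 1268_1270) to 762 higher and 0 to 16 lower. Of the 8 factors, 1 (Cebpa, 3.49) was higher with pan-leukocyte scaling. Irf8 was lower in DESeq2, in limma-voom, without a filter (edgeR adjusted p = 0.0498) and with tumour libraries (edgeR adjusted p = 0.0487). The fit with tumour libraries counts libraries of the same mouse as independent.

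Signs changed as follows on the log2 scale. Scaling to pan-leukocyte genes gave 0.68 for Cebpd, 0.030 for Spi1 and 1.43 for Klf4, all under that scale's median of 1.71. The replicate block gave 0.025 and 0.063 for Cebpd and changed no other sign or call among the factors. Gfi1 was -0.56 in limma-voom, -0.11 without the 4 libraries, -0.40 as a difference of mean log2 CPM and -0.16 without marrows 737 and 779, where Cebpb was -0.13. Leaving out each sample gave -0.18 to 1.23 for Cebpa, -0.24 to 0.39 for Cebpb, -0.46 to 0.016 for Cebpd and -0.50 to 0.52 for Gfi1. With 4 sarcoma mice, 1 of them low in leukocyte genes, intervals of up to several log2 units remained.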
